A study of Mus musculus with 9 samples.

Results

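The transcription factor Nrf2 (gene Nfe2l2), its inhibitor Keap1 and 8 genes commonly read as Nrf2 targets (Hmox1, Nqo1, Srxn1, Gclc, Gclm, Txnrd1, Slc7a11 and Osgin1) were followed in mouse primary renal tubular epithelial cells. These 10 genes were chosen by name from a table of 31167 genes, with earlier results of these data known. All 10 were among the 13985 genes with enough signal to be tested. With Egr1 overexpression 9 of the 10 were higher than in Sham, at 1.42 to 3.96 times its mean level, where 9.87% of all tested genes were called higher, and Osgin1 was not called. After hypoxia and reoxygenation only Hmox1 was called among the 10, and it was lower than in Sham, as were 2.65% of all tested genes.

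Cells came from kidneys of C57BL/6 mice and formed 3 groups with 3 libraries each. The Sham group had no listed treatment. The H/R group was kept in glucose-free medium at 1.0% oxygen for 6 h and then returned to complete medium for 18 h, a culture model of ischemia and reperfusion. The EGR1OV group was transfected with an Egr1 overexpression plasmid using EndoFectin Max, and the study's methods list a plasmid of this kind with the CMV promoter, which is active in most cell types. The study describes the Sham cells as untreated and names H/R alone or the plasmid alone for the other groups, while the protocol in the labels, which is the same for all libraries, lists transfection and H/R together. Neither says whether Sham or H/R cells received the reagent, or whether replicates are separate cultures or animals. No group with an empty plasmid was analysed here, so the response to a plasmid and the response to Egr1 cannot be told apart, and p-values measure only the spread between these libraries, which may be technical.

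In unstressed cells KEAP1 binds NRF2 and hands it to a CUL3 ubiquitin ligase, so that NRF2 is degraded. Oxidants and electrophiles modify cysteines of KEAP1, NRF2 then accumulates, pairs with small MAF proteins and binds antioxidant response elements near genes of glutathione synthesis, thiol reduction, quinone reduction and heme breakdown. In the kidney the pathway is known for limiting oxidant damage to tubules after ischemia. NRF2 is largely controlled at the protein level, which RNA does not measure.

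Levels are FPKM, in which the fragments of a gene are divided by its exon length in kilobases and by the size of its library. Changes are differences in log2(FPKM + 1), tested with limma over all 13985 genes. A gene was called at a Benjamini-Hochberg adjusted p under 0.05 with a change of at least 1.3-fold in comparisons of EGR1OV, or 1.2-fold for H/R against Sham. Depth recovered from the values was 16183618 to 18384022 reads per library. Egr1 itself, read as a check of the labels, was at 6.20, 6.91 and 6.09 FPKM in Sham, 8.57, 7.59 and 7.48 FPKM in H/R and 45.7, 42.2 and 40.1 FPKM in EGR1OV. The noncoding RNA gene Gm23935 set some libraries apart, running from 1494 to 21700 FPKM with its 3 highest values in Sham 3, H/R 2 and H/R 3, and no call of a member changed when it entered the fit as a covariate. Gene positions are those of the deposited table, which for all 10 members equal the GENCODE annotation of GRCm38, although the submitters' notes name mm9. All 8 tubule markers were above 0 in each group (Pax8, Pax2, Cdh16, Cdh1, Epcam, Krt8, Krt18 and Krt19).

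Promoter stretches of 6 members are printed because they hold the letters that textbooks tie to the factors at issue, NRF2, AP-1 and EGR1. The windows are RefSeq's for mouse (GRCm38.p6), from 250 bases before to 50 bases after a transcription start, and 8 members had at least 1 window, 10 in all. Hmox1 and Gclc had no entry. Both strands were searched for the antioxidant response element core TGACNNNGC, the AP-1 site TGANTCA and the Egr1 site GCGNGGGCG. Of 32851 mouse windows of this length, 12.4% hold the first, 7.81% the second and 5.55% the third. Sequences are written 5′ to 3′ along the strand of the gene, and capitals mark the matches. The stretch of Nfe2l2 lies at chr2:75704834-75704913 on the minus strand, that of Srxn1 at chr2:152105334-152105503 on the plus strand, that of Gclm at chr3:122245369-122245448 on the plus strand, that of Nqo1 at chr8:107403240-107403319 on the minus strand, that of Txnrd1 at chr10:82859078-82859157 on the plus strand and that of Osgin1 at chr8:119437013-119437092 on the plus strand.
Nfe2l2: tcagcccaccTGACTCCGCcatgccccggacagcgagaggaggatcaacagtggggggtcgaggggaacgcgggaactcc
Srxn1: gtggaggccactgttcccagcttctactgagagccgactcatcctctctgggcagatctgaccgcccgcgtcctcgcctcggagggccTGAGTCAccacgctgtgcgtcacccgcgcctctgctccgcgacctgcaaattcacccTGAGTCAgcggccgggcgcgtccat
Gclm: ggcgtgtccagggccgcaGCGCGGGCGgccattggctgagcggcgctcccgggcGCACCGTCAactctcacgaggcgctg
Nqo1: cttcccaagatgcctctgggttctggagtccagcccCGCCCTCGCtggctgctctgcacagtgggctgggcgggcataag
Txnrd1: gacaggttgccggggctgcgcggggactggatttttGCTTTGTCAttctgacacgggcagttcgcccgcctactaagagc
Osgin1: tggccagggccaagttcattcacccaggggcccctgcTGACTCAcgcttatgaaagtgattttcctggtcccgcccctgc

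The capitals in Nfe2l2 are an antioxidant response element core 240 to 232 bases before the start. Srxn1 shows a pair of AP-1 sites, at 102 to 96 and 45 to 39 bases before the start, and also holds an element core after the start. The nearer AP-1 site continues as TGAGTCAgc, with G where the searched core TGACNNNGC has C. Broader forms of the element were not searched. In Gclm an Egr1 site precedes an element core read on the other strand, and in Nqo1 an Egr1 site is read on the other strand. Txnrd1 has 3 annotated starts, and 1 of its 3 windows holds an element core, again on the other strand. Osgin1 shows a single AP-1 site at the RefSeq start used, which lies inside the gene as the deposited table places it. No match was found in the windows of Keap1 and Slc7a11, which says only that these letters are not in those windows. A match is a description of the sequence and was not tested for binding.

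The sensor pair was read first. Nfe2l2 (ENSMUSG00000015839, protein coding, chr2:75675513-75704641), which encodes NRF2, was at 30.2, 31.2 and 31.5 FPKM in Sham, 28.3, 26.6 and 28.3 FPKM in H/R and 48.1, 46.5 and 47.3 FPKM in EGR1OV. The EGR1OV values all lay above Sham and the H/R values all lay just below it. Mean levels were 31.0 ± 0.690, 27.7 ± 0.980 and 47.3 ± 0.765 FPKM (SD, n = 3 each). In EGR1OV Nfe2l2 rose by +0.60 against Sham (SE 0.0319, limma adjusted p 4.8e-07). After H/R it was −0.15 (SE 0.0319, limma adjusted p 0.0167), which is under the 1.2-fold threshold and was not called.

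Keap1 (ENSMUSG00000003308, protein coding, chr9:21229730-21239361), which encodes the adaptor that holds NRF2 for degradation, was at 5.60, 6.16 and 5.32 FPKM in Sham, 5.46, 6.34 and 5.56 FPKM in H/R and 10.4, 9.69 and 9.95 FPKM in EGR1OV. Sham and H/R overlapped, and EGR1OV lay above both. In EGR1OV Keap1 rose by +0.72 against Sham (SE 0.0625, limma adjusted p 1.43e-05). The H/R difference was +0.02 (95% interval −0.12 to 0.16, limma adjusted p 0.875). The factor and its inhibitor were thus both higher in EGR1OV. Nfe2l2 stood at 5.46 ± 0.439 times the FPKM of Keap1 in Sham, 4.82 ± 0.543 times in H/R and 4.73 ± 0.0832 times in EGR1OV (SD, n = 3 each), and for EGR1OV against Sham the exact two-sided permutation p of this ratio was 0.1, the smallest that 3 against 3 allows. An antisense transcript, Gm16754, shares 510 exon bases with Keap1, and whether reads were counted by strand is not given in the sources used here. Its mean level was between 0.153 and 0.347 FPKM in the 3 groups.

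**Figure D1:**
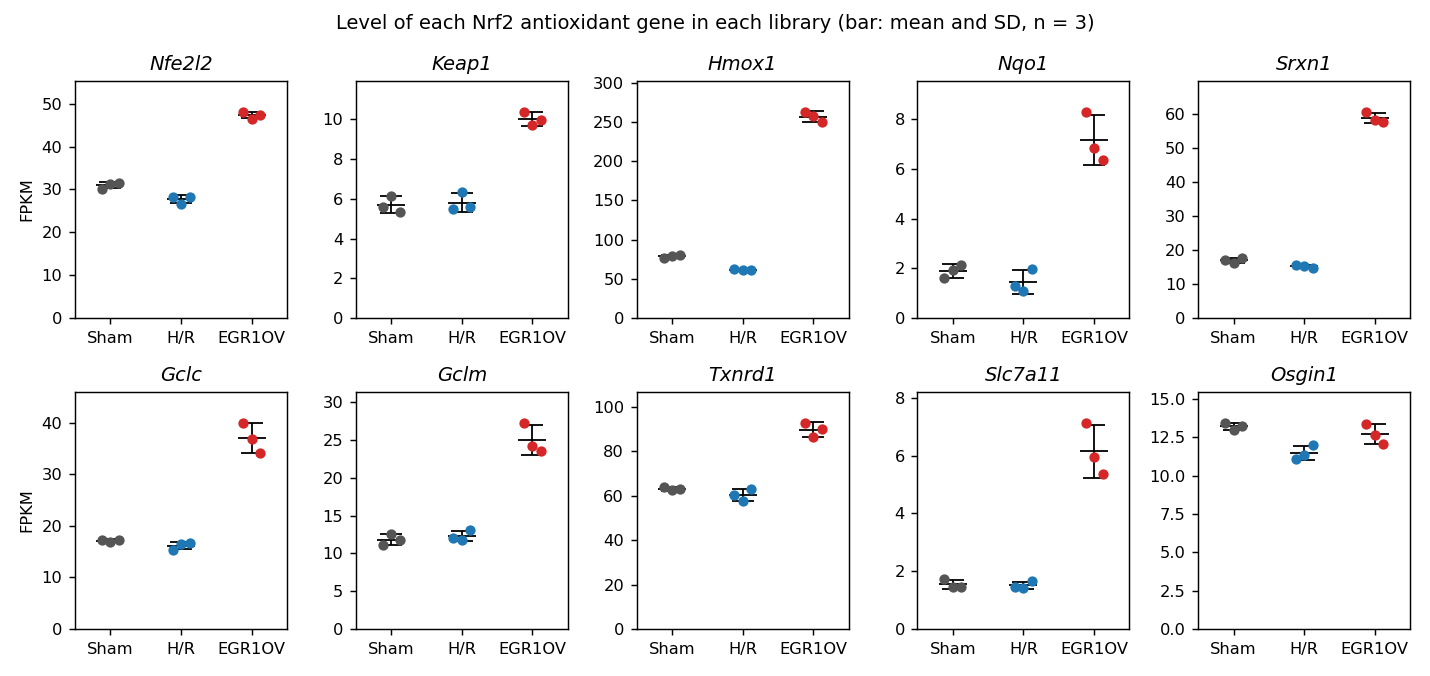
FPKM of each of the 10 genes in each library, with points for the 3 libraries of a group and bars for the mean and SD (n = 3), each panel on its own axis from 0. In 9 panels the 3 EGR1OV points lie above all 6 other points, and Osgin1, where EGR1OV and Sham overlap, is the exception.

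Hmox1 and Nqo1 are the targets most often used to read NRF2 activity. Hmox1 (ENSMUSG00000005413, protein coding, chr8:75093621-75100589) encodes heme oxygenase-1, which opens heme to biliverdin, iron and carbon monoxide. It was at 76.7, 79.0 and 80.2 FPKM in Sham, 62.6, 61.3 and 61.0 FPKM in H/R and 263, 258 and 249 FPKM in EGR1OV. The 3 groups did not overlap, with H/R lowest and EGR1OV highest. Group means were 78.6 ± 1.75, 61.6 ± 0.847 and 257 ± 6.74 FPKM (SD, n = 3 each). With the plasmid Hmox1 rose by +1.69 (SE 0.0275, limma adjusted p 1.02e-10). Following H/R it fell by 0.35 on the log2 scale (limma adjusted p 0.000229 with the same SE).

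Nqo1 (ENSMUSG00000003849, protein coding, chr8:107388225-107403206) encodes the quinone reductase NQO1 and was near the bottom of the list in level. It was at 1.61, 1.96 and 2.15 FPKM in Sham, 1.31, 1.09 and 1.997 FPKM in H/R and 8.30, 6.86 and 6.35 FPKM in EGR1OV. H/R and Sham overlapped, and the EGR1OV values lay above both. These values rest on 31 to 55 reads per library in Sham and H/R and 166 to 214 in EGR1OV. The mean in EGR1OV was 3.77 times that in Sham, or +1.49 in log2(FPKM + 1) (SE 0.14, limma adjusted p 2.42e-05). For H/R against Sham the interval was wide, at −0.56 to 0.07 around −0.25 (limma adjusted p 0.286), and it held both 0 and the size of the fall of Hmox1.

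Cystine uptake and the first step of glutathione synthesis came next. Slc7a11 (ENSMUSG00000027737, protein coding, chr3:49892526-50443614) encodes xCT, the light chain of the cystine and glutamate exchanger. It was at 1.73, 1.46 and 1.47 FPKM in Sham, 1.45, 1.43 and 1.64 FPKM in H/R and 7.15, 5.95 and 5.36 FPKM in EGR1OV. Sham and H/R overlapped, and EGR1OV lay above both. The mean level was 3.96 times that of Sham in EGR1OV, the largest ratio of the 10 genes, and the change of +1.48 (SE 0.0913, limma adjusted p 1.29e-06) is smaller than that ratio because the added 1 FPKM weighs on low values. After H/R it was −0.02 (95% interval −0.23 to 0.18, limma adjusted p 0.902). The heavy chain Slc3a2, which anchors the exchanger in the membrane, also rose in EGR1OV, by +0.55. Slc7a11 stood at 0.0302 ± 0.00284 times the FPKM of Slc3a2 in Sham, 0.0318 ± 0.00345 times in H/R and 0.0815 ± 0.0121 times in EGR1OV (SD, n = 3 each).

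Gclc (ENSMUSG00000032350, protein coding, chr9:77754535-77794485) encodes the catalytic subunit of glutamate-cysteine ligase, the rate-limiting enzyme of glutathione synthesis. It was at 17.2, 16.9 and 17.3 FPKM in Sham, 15.4, 16.5 and 16.7 FPKM in H/R and 40.02, 36.9 and 34.2 FPKM in EGR1OV. The H/R values lay below Sham by a narrow gap and EGR1OV lay well above. In EGR1OV Gclc rose by +1.07 (SE 0.0539, limma adjusted p 3.21e-07). The H/R difference of −0.08 was not called (limma adjusted p 0.388).

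Gclm (ENSMUSG00000028124, protein coding, chr3:122245557-122270732), the modifier subunit that raises the activity of the ligase, was at 11.2, 12.6 and 11.8 FPKM in Sham, 12.04, 11.8 and 13.1 FPKM in H/R and 27.3, 24.2 and 23.5 FPKM in EGR1OV. Sham and H/R overlapped. Gclm rose by +1.02 in EGR1OV (SE 0.0633, limma adjusted p 1.37e-06), and the H/R difference was +0.05 (limma adjusted p 0.643). The ratio of Gclm to Gclc was 0.692 ± 0.0487 in Sham and 0.676 ± 0.0169 in EGR1OV (SD, n = 3 each, exact two-sided permutation p 0.8). The mean in EGR1OV was 2.16 times that in Sham for Gclc and 2.11 times for Gclm. Gclm shares 244 exon bases with a processed pseudogene on its own strand, Gm6061, and 296 with Gm17494 on the other strand, so a small part of its reads could belong to these.

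The thiol reductases were read next. Txnrd1 (ENSMUSG00000020250, protein coding, chr10:82833951-82897712) encodes the cytosolic enzyme that reduces thioredoxin with NADPH. It was at 64.0, 62.5 and 62.9 FPKM in Sham, 60.4, 57.7 and 63.2 FPKM in H/R and 93.0, 86.3 and 90.3 FPKM in EGR1OV. Sham and H/R overlapped and EGR1OV lay above both. The rise in EGR1OV was the smallest of those called, +0.50 (SE 0.0379, limma adjusted p 5.24e-06), or 1.42 times in mean level. After H/R the difference was −0.06 (limma adjusted p 0.324).

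Srxn1 (ENSMUSG00000032802, protein coding, chr2:152105516-152111376) encodes sulfiredoxin, which repairs overoxidised peroxiredoxins. It was at 17.1, 16.3 and 17.6 FPKM in Sham, 15.5, 15.4 and 14.8 FPKM in H/R and 60.7, 58.3 and 57.7 FPKM in EGR1OV. The groups did not overlap. The rise in EGR1OV was +1.73 (SE 0.0368, limma adjusted p 5.19e-10), the largest of the 10 on this scale. After H/R the change was −0.15 (SE 0.0368, limma adjusted p 0.0333), which is under the fold threshold.

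Osgin1 (ENSMUSG00000074063, protein coding, chr8:119434124-119446256), an oxidative stress-induced growth inhibitor, was the member not called in EGR1OV. It was at 13.5, 13.0 and 13.2 FPKM in Sham, 11.1, 11.4 and 11.997 FPKM in H/R and 13.4, 12.7 and 12.1 FPKM in EGR1OV. EGR1OV overlapped Sham, and H/R lay below both. In EGR1OV the difference from Sham was −0.05, with a 95% interval of −0.15 to 0.04 (limma adjusted p 0.342), so that a rise of 1.3-fold lies outside the interval. After H/R it was −0.19 (SE 0.0434, limma adjusted p 0.0254), which is under the 1.2-fold threshold.

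The EGR1OV comparison asked what the overexpression plasmid changes in these cells. Of the 10 genes, 9 were called higher and none lower, where 9.87% of all tested genes were called higher and 6.51% lower. The 3 EGR1OV values lay above the 3 Sham values for those same 9 genes, against 31% of all tested genes, and no member lay wholly below Sham, against 24.6%. The median change of the 10 was +1.04, against a median of +0.02 over all tested genes. Over all tested genes 60.3% of the calls were higher as deposited and 45.9% after quantile normalization, and 9 members were called higher under both. Single comparisons of mean FPKM by an exact permutation test (two-sided) gave p 0.1 in each of the 9 genes, the smallest this design allows, and 0.3 in Osgin1.

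**Figure D2:**
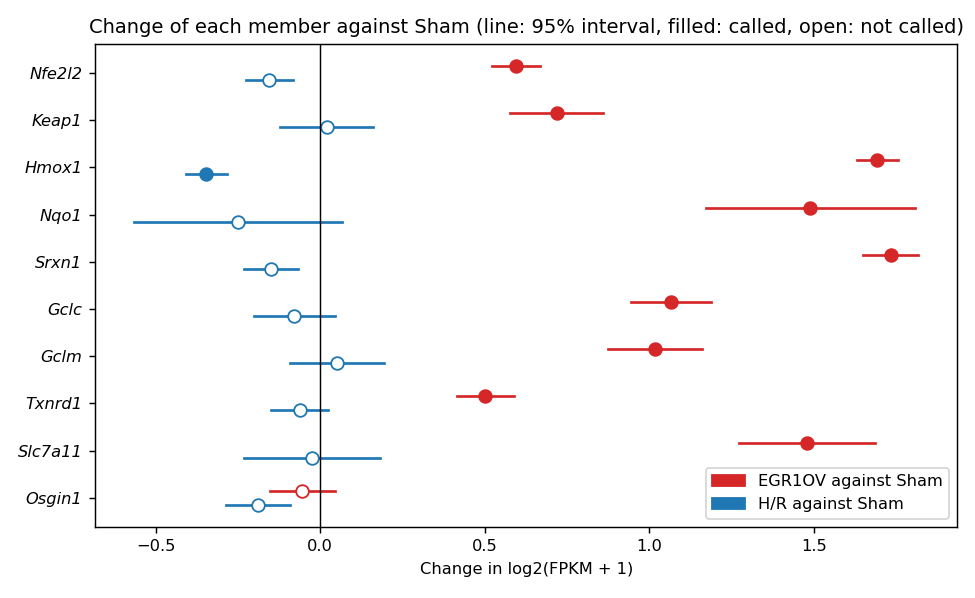
Change of each gene against Sham in log2(FPKM + 1), with EGR1OV in red, H/R in blue, lines for the 95% interval of the limma fit and filled points for called genes. The red points of 9 genes lie between +0.50 and +1.73 and that of Osgin1 at −0.05, while the blue points lie between −0.35 and +0.05.

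Markers of several cell types also differed between the groups. The summed level of 10 macrophage markers was 143 to 147 FPKM in Sham, 119 to 126 in H/R and 24.0 to 28.4 in EGR1OV, with all 10 above 0 in each group, and 8 of the 9 tested were called lower in EGR1OV, where 6.51% of all tested genes were. After H/R Lyz2 and Adgre1 of this list were called lower, where 2.65% of all tested genes were. Epcam of the tubule list and Col1a1 and Col1a2 of the fibroblast list were called higher after H/R, where 1.6% of all tested genes were. In EGR1OV Col1a2 was also called higher (+0.45), where 9.87% of all tested genes were, and Pecam1 of the endothelial list lower (−0.46). The summed tubule markers were 1973 to 2012 FPKM in Sham, 1828 to 1912 in H/R and 1272 to 1379 in EGR1OV, where Krt8, Krt18 and Krt19 were lower and Epcam higher. Endothelial markers, with all 6 above 0, summed to 9.74 to 10.3 FPKM in Sham, 10.1 to 10.3 in H/R and 7.04 to 7.61 in EGR1OV. Fibroblast markers summed to 31.8 to 33.4, 38.0 to 39.5 and 36.8 to 41.8 FPKM, with Lum at 0 in Sham and H/R. The part of these shifts in the changes of the 10 genes was not tested. In bulk RNA a change in the number of cells of a type and a change in RNA per cell cannot be told apart.

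The H/R comparison asked what hypoxia and reoxygenation change. Hmox1 was the only member called, and it was lower, where 2.65% of all tested genes were called lower and 1.6% higher. Without the fold threshold 4 members had an adjusted p under 0.05, all lower (Nfe2l2, Hmox1, Srxn1 and Osgin1), against 7.54% of all tested genes (4.15% were higher by that rule). That threshold was missed under 12 of 20 alternatives by Srxn1, including median-ratio scaling (adjusted p 0.0778, limma), under 8 by Osgin1 and under 3 by Nfe2l2, including the same scaling (adjusted p 0.0523, limma). The 3 H/R values lay below the 3 Sham values for 5 members, these 4 and Gclc, against 21.8% of all tested genes, and for none above, against 11.8%. The 10 changes ran from −0.35 for Hmox1 to +0.05 for Gclm with a median of −0.11, against −0.03 over all tested genes. Of the 10, 8 were below 0, against 59.9% of all tested genes, and after median-ratio scaling or quantile normalization 7 were. Over all genes the higher share of H/R calls was 37.7% on the deposited values, 57.9% with median-ratio scaling and 56.5% with quantile normalization. No member was called higher after H/R under any of these scalings.

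**Figure D3:**
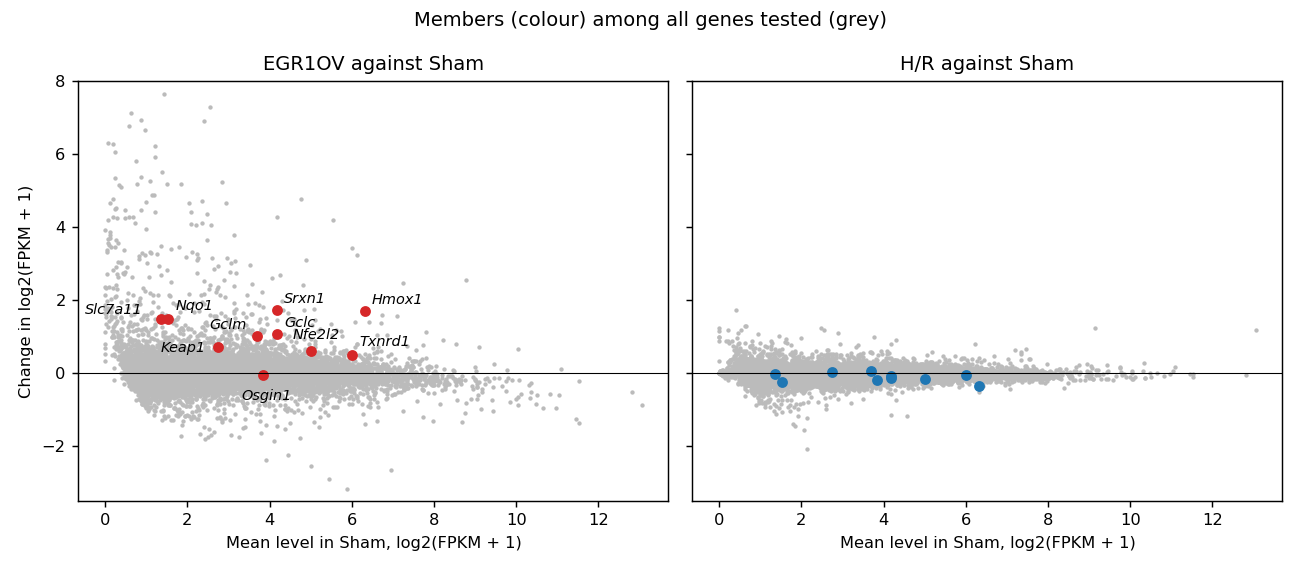
Change against Sham in log2(FPKM + 1) for all 13985 tested genes (grey) by their mean Sham level in log2(FPKM + 1), with the 10 members in colour. In EGR1OV 9 members lie at +0.50 or higher and Osgin1 at −0.05, and after H/R Hmox1, at −0.35, is the member farthest from 0.

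The treated groups were also compared with each other. EGR1OV was higher than H/R in 9 members at 1.3-fold, where 11.9% of all tested genes were called higher and 6.94% lower, and no member was lower. The 3 EGR1OV values lay above the 3 H/R values for all 10 genes, against 36.6% of all tested genes that lay wholly above and 22% wholly below. On the log2(FPKM + 1) scale Hmox1 differed by +2.04 (SE 0.0275, limma adjusted p 4.02e-11), Srxn1 by +1.88 and Nqo1 by +1.74. The order depends on the scale, since the ratio of mean FPKM was 4.89 for Nqo1, 4.16 for Hmox1, 4.07 for Slc7a11 and 3.87 for Srxn1. Slc7a11 differed by +1.504, Gclc by +1.14 and Gclm by +0.97. The regulators Nfe2l2 and Keap1 differed by +0.75 and +0.70, and Txnrd1 by +0.56. For Osgin1 the difference of +0.13 had a limma adjusted p of 0.0273 but was under the fold threshold. Over 20 alternatives it ran from 0.0040 to 0.17, with a limma adjusted p of up to 0.950. Higher genes made up 63.2% of all calls on the deposited values, 52.1% with median-ratio scaling and 42.5% with quantile normalization, and the count of members called was 9 under each. This comparison shares the EGR1OV libraries with the first and the H/R libraries with the second, so it adds no independent sample.

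The order of levels changed with Egr1 overexpression. In Sham the members ran from Hmox1 at 78.6 FPKM, above 96.2% of tested genes, through Txnrd1, Nfe2l2, Gclc, Srxn1, Osgin1, Gclm, Keap1 and Nqo1 to Slc7a11 at 1.55 FPKM, above 20.7% of tested genes. Gclc and Srxn1 overlapped in Sham, as did Nqo1 and Slc7a11. In H/R Hmox1 at 61.6 FPKM and Txnrd1 at 60.5 FPKM overlapped as well. In EGR1OV Hmox1 stood at 257 FPKM against 89.9 FPKM for Txnrd1, and Srxn1 at 58.9 FPKM had passed Nfe2l2 at 47.3 FPKM, with no overlap in either pair. The coefficient of variation between replicates had a median of 4.24% over the 30 gene and group pairs and ran from 1.23% to 32.4%, the highest being Nqo1 in H/R.

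The genes whose levels ran most alike over the 9 libraries were named for the factor and its 2 textbook targets, among 7588 genes whose mean reached 5 FPKM. The 9 points fall into the 3 groups, so these correlations are a description of a shared group pattern. For Hmox1 the highest Pearson correlations of log2(FPKM + 1) were with Axl (0.9991), Ddit3 (0.9987), Nupr1 (0.9987), Akr1b3 (0.9987) and Mgat4b (0.9986). Ddit3 encodes the stress factor CHOP and Axl a receptor tyrosine kinase. Nfe2l2 ran most like Mcm6 (0.997), Hmox1 (0.996), Hmga1b (0.9959), Kat2b (0.9958) and Mgat4b (0.9955). Nqo1 ran most like AU020206 (0.9948), Pik3r1 (0.9919), Klf4 (0.9907), Aftph (0.9902) and Pla2g4a (0.9901).

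Beyond the 10 members, 94 other genes of the pathway and of the reactions it feeds were read in 8 lists, and 84 had enough signal to be tested. The lists were chosen with earlier results of these data known, so their shares of calls are descriptions and measure no enrichment. In EGR1OV 25 of the 84 genes were called higher and 7 lower against Sham. That is 38.1% of those tested, where 16.4% of all tested genes were called. Their median change was +0.12. After quantile normalization 19 were called higher and 10 lower. After H/R only Gstm1 (+0.33, limma adjusted p 0.0106) and Chac1 (−0.31, limma adjusted p 0.0249) were called, or 2.38% of those tested against 4.25% of all tested genes. Without Sham 1 the count was 5, and without Sham 2 it was 1. Between the treated groups 25 were higher and 5 lower in EGR1OV, or 35.7% against 18.9%.

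Among 14 tested partners and regulators of NRF2, 2 were called higher and 2 lower in EGR1OV, against 9.87% and 6.51% of all tested genes. Sqstm1, whose product p62 draws KEAP1 into autophagy, went from 297 ± 3.85 to 558 ± 6.05 FPKM (SD, n = 3 each), a change of +0.91 (limma adjusted p 2.75e-09). Maff, a small MAF protein, fell by 0.72 on the log2 scale from 55.5 ± 1.84 to 33.3 ± 1.97 FPKM (SD, n = 3 each), and was at 64.7 ± 2.96 FPKM after H/R. The other small MAF genes of the list, Mafg (+0.29) and Mafk (+0.35), went the other way in EGR1OV. Their limma adjusted p was 0.000542 and 0.00139, but both were under the fold threshold and not called. Bach2, a repressor that competes for MAF-bound sites, was low, at 0.930 FPKM in Sham and 0.416 FPKM in EGR1OV. Bach1 of the same list went the other way, at +0.19 (limma adjusted p 0.0361), and was not called. Nfe2l1, a close relative of Nfe2l2, was the other gene called higher, by +0.41. Without the fold threshold 7 of this list were higher and 4 lower at a limma adjusted p under 0.05. The share of all tested genes by that rule was not counted, so no excess is read from these. After quantile normalization 1 was called higher and 2 lower.

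Of 14 tested genes of glutathione synthesis, recycling and export, 6 were called higher in EGR1OV and none lower. The shares over all tested genes were 9.87% higher and 6.51% lower. Without the fold threshold 6 were higher and 4 lower at a limma adjusted p under 0.05, with the share of all tested genes not counted. The exporter Abcc1 rose by +0.68, glutaredoxin Glrx by +0.61 and glutathione reductase Gsr by +0.57 (limma adjusted p 2.96e-07, 0.000534 and 7.8e-06). Gsr was at 35.0, 35.6 and 35.6 FPKM in Sham and 54.2, 52.7 and 51.9 FPKM in EGR1OV, with no overlap. Chac1, whose product degrades glutathione, was at 17.2 ± 1.82 FPKM in Sham and 13.7 ± 0.456 FPKM after H/R (SD, n = 3 each). The median of the list was +0.04 in EGR1OV and −0.02 after quantile normalization.

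Glutathione peroxidases and transferases had the largest changes outside the members, with 6 of 20 tested genes called higher and 2 called lower in EGR1OV. Those calls compare with 9.87% of all tested genes called higher and 6.51% called lower. Gsta4, which clears the lipid aldehyde 4-hydroxynonenal, was at 6.58, 7.52 and 6.84 FPKM in Sham and 25.0, 19.2 and 20.3 FPKM in EGR1OV, a change of +1.49 (limma adjusted p 2.28e-06). The microsomal transferase Mgst1 rose by +1.17 and Gsta3 by +1.16, the latter from only 0.586 FPKM in Sham. Gstp1 was also called higher, by +1.14, with a wide SE of 0.409 and a limma adjusted p of 0.0461. Mgst3 (−0.85) and Gstm5 (−0.47) were the 2 called lower. After median-ratio scaling 5 of the list were called higher and 3 lower, and after quantile normalization also 5 and 3. Without the fold threshold 9 of the list were higher and 3 lower at a limma adjusted p under 0.05. The peroxidase Gpx1 was among the lower, at −0.37 (limma adjusted p 5.26e-05), just under the 1.3-fold threshold. By the rule without that threshold the share of all tested genes was not counted. Gstm1, the gene called higher after H/R, had a mean of 12.3 ± 1.16 FPKM in Sham that compares with 15.7 ± 0.406 FPKM for H/R and 26.7 ± 1.21 FPKM for EGR1OV (SD, n = 3 each). Transferases have near-identical copies, and how reads shared between them were counted is not given in the sources used here, so single members of that family are uncertain.

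In the thioredoxin and peroxiredoxin list 2 of 12 were called higher and 2 lower in EGR1OV, against 9.87% and 6.51% of all tested genes. Prdx1, an abundant peroxidase that is itself repaired by sulfiredoxin, rose by +0.75 from 162 ± 4.31 to 272 ± 5.49 FPKM (SD, n = 3 each), and Prdx5 rose by +0.55. Txnrd3 (−0.59), a relative of the member Txnrd1, and Txnip (−0.53), which binds and inhibits thioredoxin, were the 2 called lower. The median of this list was +0.04 as deposited and −0.06 after quantile normalization.

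Of 8 genes that supply NADPH, the electron donor of these reductases, 3 were called higher and 1 lower in EGR1OV. Over all tested genes the shares called were 9.87% higher and 6.51% lower. Pgd (+0.70) and G6pdx (+0.44) of the pentose phosphate pathway rose with Taldo1 (+0.42), and mitochondrial Idh2 fell by 0.60 on the log2 scale. After quantile normalization 1 gene of this list was called higher and 2 lower. Quinone, aldehyde and epoxide detoxification had 3 of 8 tested genes higher, the aldose reductase Akr1b3 (+1.07, limma adjusted p 1.48e-09), the carbonyl reductase Cbr3 (+0.88) and the epoxide hydrolase Ephx1 (+0.56). Akr1b3 was at 19.4, 19.1 and 19.8 FPKM in Sham, 17.4, 17.6 and 17.02 FPKM in H/R and 42.5, 41.8 and 41.8 FPKM in EGR1OV. As with Hmox1, H/R was lowest, EGR1OV highest and no group overlapped another.

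Of 5 tested genes of heme breakdown and iron storage, 2 were called higher in EGR1OV, against 9.87% of all tested genes. The ferritin heavy chain Fth1, which stores the iron released from heme, rose by +0.72 from 545 ± 17.4 to 898 ± 19.6 FPKM (SD, n = 3 each), and biliverdin reductase B (Blvrb) by +0.47 at a level near 2 FPKM. Biliverdin reductase A (Blvra) was not called, at −0.06 (limma adjusted p 0.667). Fth1 has many processed pseudogenes, so its level is uncertain by the reads they share. Of 3 tested genes that remove superoxide and hydrogen peroxide, only catalase (Cat, +0.41) was called, and it was not called after quantile normalization.

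**Figure D4:**
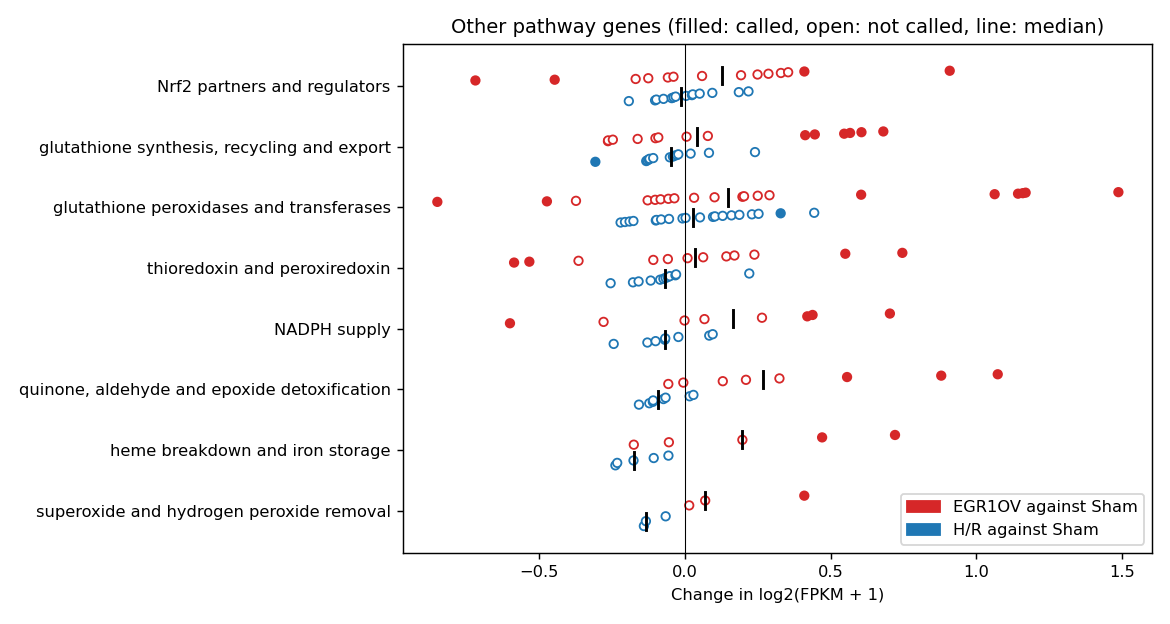
Change against Sham in log2(FPKM + 1) of the 84 other pathway genes tested, by list, with EGR1OV in red, H/R in blue, filled points for called genes and black lines for list medians. In EGR1OV the lists hold 25 genes called higher and 7 lower with medians from +0.04 to +0.27, and after H/R only 2 points are filled.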

How the data were processed

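RNA from 9 libraries (3 each of Sham, H/R and EGR1OV, grouped by title and group label) was sequenced by the submitters. The authors deposited a table of FPKM per gene and library, with no replicates pooled. The submitters' processing notes name Bowtie2 2.2.3, HISAT2 2.1.0, TopHat2 and the build mm9, without saying which step each served. The counter and annotation are not given in the sources used here. GENCODE M21 (GRCm38) held 99.8% of the identifiers, and its positions equalled 94.6% of those in the table, all 10 members included, so positions are read as GRCm38.

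The 10 members, the 8 wider lists and the marker lists were chosen with earlier results of these data known. All 10 members are named in every comparison, and from each wider list up to 3 called genes with the largest absolute change. Against Sham in EGR1OV Bach1, Blvra, Gpx1, Gstm1, Gstm5, Gstp1, Mafg, Mafk, Mgst3, Nfe2l1, Slc3a2, Taldo1 and Txnip were named after their values were seen. The 5 genes most alike in level were taken for Nfe2l2, Hmox1 and Nqo1.

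The 13985 genes whose 9-library mean reached 0.5 FPKM were fitted together as log2(FPKM + 1), a scale that understates changes of low genes, with limma 3.58.1 in R 4.3.3 (lmFit, eBayes with trend, two-sided, Benjamini-Hochberg). The fold thresholds against Sham are those of the study, which names no test for its lists of changed genes. For EGR1OV against H/R a 1.3-fold threshold was set in this work. Single values were also compared by exact two-sided permutation tests. Low values are multiples of a fixed step, and with GENCODE exon lengths 94.0% of 162954 values of up to 1000 reads came out whole within 0.02 reads, which gave the depth. Members rest on 31 to 10939 reads per library. All 9 replicate pairs differed by more than sampling noise and none was merged. The code was tested on simulated data.

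Groups share replicate numbers, but deviations of libraries with equal numbers correlated at −0.0206 to 0.0618 only, so the numbers were not taken to pair samples. Alternatives used a pseudocount of 0.1, no filter, a minimum mean of 5 FPKM, median-ratio scaling, quantile normalization, a replicate block, eBayes without trend, only the groups compared, voom on recovered reads, Gm23935 as a covariate, protein-coding genes only, each library left out, no fold threshold and 2-fold. Levels, promoters and figures were made in Python 3.11.15 (matplotlib 3.10.9, numpy 2.4.6, pandas 2.3.3 and scipy 1.17.1).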

Additional observations from a re-analysis of the deposited data

Results flagged for a closer look

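For 3 members the adjusted p was under 0.05 against Sham in both treated groups, with opposite directions, as it was for 3.04% of all tested genes (425 of 13985). Between EGR1OV and H/R Hmox1 differed by +2.04, Srxn1 by +1.88 and Nfe2l2 by +0.75 on the log2(FPKM + 1) scale, which is the gap between the changes that chose them and no separate test. The 3 EGR1OV values lay above Sham and the 3 H/R values below Sham for each of them, but only Hmox1 passed the fold threshold in both comparisons. After H/R the adjusted p of Srxn1 was 0.05 or more under 12 of 20 alternatives and that of Nfe2l2 under 3, with 0.0778 and 0.0523 after median-ratio scaling, while that of Hmox1 was under 0.05 in all 20.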

How the results depend on the processing

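Of 594 values of single members under 20 alternatives, 588 kept their direction and call, 6 changed sign and none otherwise changed its call. Those 6 were H/R differences near 0 that were not called. Keap1 (+0.02) became −0.02 without Sham replicate 3 and −0.037 without H/R replicate 2, in a range of −0.037 to 0.070 with a library left out. Slc7a11 (−0.02) became 0.00032 with median-ratio scaling, 0.0069 with quantile normalization, 0.0062 with the Gm23935 covariate and 0.027 without Sham replicate 1, in a range of −0.062 to 0.027 with a library left out. Over the alternatives the adjusted p after H/R ran from 4.9e-07 to 0.0032 for Hmox1, 0.0063 to 0.0619 for Nfe2l2, 0.0203 to 0.101 for Srxn1 and 0.0145 to 0.079 for Osgin1. In EGR1OV Osgin1 ran from −0.16 to −0.020 against Sham (limma adjusted p 0.0121 to 0.745). Against H/R it ran from 0.0040 to 0.17 (limma adjusted p 0.0135 to 0.950). At a mean of at least 5 FPKM Nqo1 and Slc7a11 were not tested.

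Counts of members called moved only with the fold threshold or with that filter. After H/R 4 were called with no fold threshold and 0 at 2-fold, in place of 1, for EGR1OV against Sham 6 at 2-fold in place of 9, and for EGR1OV against H/R 10 with no fold threshold and 5 at 2-fold in place of 9. With the 5 FPKM filter 7 were called in each comparison of EGR1OV. In the wider lists EGR1OV against Sham gave 56 with no fold threshold and 6 at 2-fold (32 as reported), and EGR1OV against H/R gave 56 and 5 (30 as reported). Shares of all tested genes were not counted at 2-fold, nor with no fold threshold in comparisons of EGR1OV. Such counts show only how calls move with the threshold. With no fold threshold 4.15% of all tested genes were higher and 7.54% lower after H/R. The 2 wider genes called after H/R were 21 with no fold threshold, 0 at 2-fold, 4 with voom on the recovered reads, 1 with no filter and 1 with the replicate block. They ran from 1 to 5 with a library left out, 5 without Sham replicate 1 and 1 without Sham replicate 2. Voom called 995 genes after H/R over the whole table in place of 594, and 3010 and 3532 in the comparisons of EGR1OV with Sham and H/R in place of 2291 and 2641. The replicate block changed no call of a member. The causes of these changes were not tested. Nqo1 had 31 reads in its lowest library, the fewest of any member.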
